A study of Mus musculus with 6 samples.

Results

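The 10 genes Thbs1, Thbs2, Thbs3, Thbs4, Comp, Sparc, Sparcl1, Spp1, Postn and Smoc1, which encode thrombospondins and other matricellular proteins, were followed among 35127 genes measured in mouse astrocytes. They were taken as a fixed list of names, and all 10 passed the filter on low counts. Bulk RNA-seq was done on 6 libraries. Astrocytes taken from brain allografts of small cell lung cancer, or SCLC, a fast-growing tumour with neuroendocrine traits, gave 3 tumour libraries. Astrocytes from brains given a sham injection gave the 3 sham libraries. The sources used here do not state strain, age, time after injection, how the astrocytes were purified or which animals lie behind a library. The p-values below therefore speak to the spread among the 6 libraries alone, and that spread may be technical.

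Matricellular proteins are secreted into the extracellular matrix but serve there mainly as signals to cell surface receptors rather than as structural scaffold. Astrocytes are a main source of them in the brain, and thrombospondins 1 and 2 and hevin (Sparcl1) released by immature astrocytes are known to promote the formation of excitatory synapses, whereas SPARC opposes the action of hevin. Osteopontin (Spp1) and periostin (Postn) are known from wounds and tumour stroma as ligands of integrins.

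Totals were 24524764 to 25800897 estimated reads in the tumour libraries and 22133723 to 23328811 in the sham libraries. Over tested genes, log2 levels differed by a root mean square of 0.322 to 0.352 among the tumour libraries and between sham 1 and sham 2, and 0.795 and 0.802 between sham 3 and each of those, farther apart than tumour from sham (0.734 to 0.749). Each value is therefore shown by library. Astrocyte markers were present in every library, with Gfap at 381 to 398 CPM (counts scaled to the effective library size) in tumour and 343 to 649 CPM in sham libraries. The 9 astrocyte markers summed to 3135 to 3243 CPM in tumour libraries and 4593, 4602 and 2685 CPM in sham libraries 1 to 3. Their median log2 fold change was -0.33. Collagen genes of fibroblasts were also abundant, with Col1a2 at 2312 to 2345 CPM in tumour and 2048 to 3825 CPM in sham libraries. The 11 SCLC and neuroendocrine markers summed to 133 to 137 CPM in tumour and 115 to 164 CPM in sham libraries, most of it Ncam1 (98.7 to 100 CPM in tumour and 65.4 to 117 CPM in sham libraries), and 0 of the 7 tested were called. Of the others, Grp was at 0 in all libraries, Chga was at 0 in the tumour libraries, and Epcam had 6 to 8 reads per tumour library and 0 in sham libraries. Summed markers of endothelium reached 586 to 592 CPM in tumour and 515 to 615 CPM in sham libraries, nearly all of it Cdh5 (573 to 577 CPM in tumour and 497 to 595 CPM in sham libraries), while Cldn5 was at 0 in every library and Pecam1 was below 0.5 CPM. Markers of neurons summed to 101 to 111 CPM in tumour and 84.1 to 146 CPM in sham libraries, mostly Stmn2, with Rbfox3 at 0 in every library. Markers of the oligodendrocyte lineage summed to 274 to 288 CPM in tumour and 176 to 205 CPM in sham libraries, mostly Pdgfra, with Mog at 0 to 2 reads. Of 9 tested astrocyte markers 1 was called higher and 1 lower, and of 4 tested endothelium markers 1 was called lower. Of 4 tested neuron markers and of 4 tested oligodendrocyte lineage markers, 1 each was called higher. Of 9 tested fibroblast, pericyte and smooth muscle markers 0 were called. Over all tested genes 10.5% were called higher and 10.4% lower.

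Of the 10 genes, Thbs4, Spp1 and Sparc rose and Thbs3 fell in tumour libraries. Calls are from edgeR's quasi-likelihood test with p-values adjusted by Benjamini-Hochberg over 14359 tested genes and a threshold of 0.05. The 3 that rose stand against 10.5% of all tested genes called higher and the 1 that fell against 10.4% called lower, or 4 of 10 against 20.9% in either direction. Tumour and sham values did not overlap for 5 of the 10 (Thbs4, Spp1, Sparc, Thbs3 and Comp), as was the case for 44.1% of all tested genes. The median log2 fold change was -0.02 over the 10 genes and -0.02 over all tested genes.

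**Figure D1:**
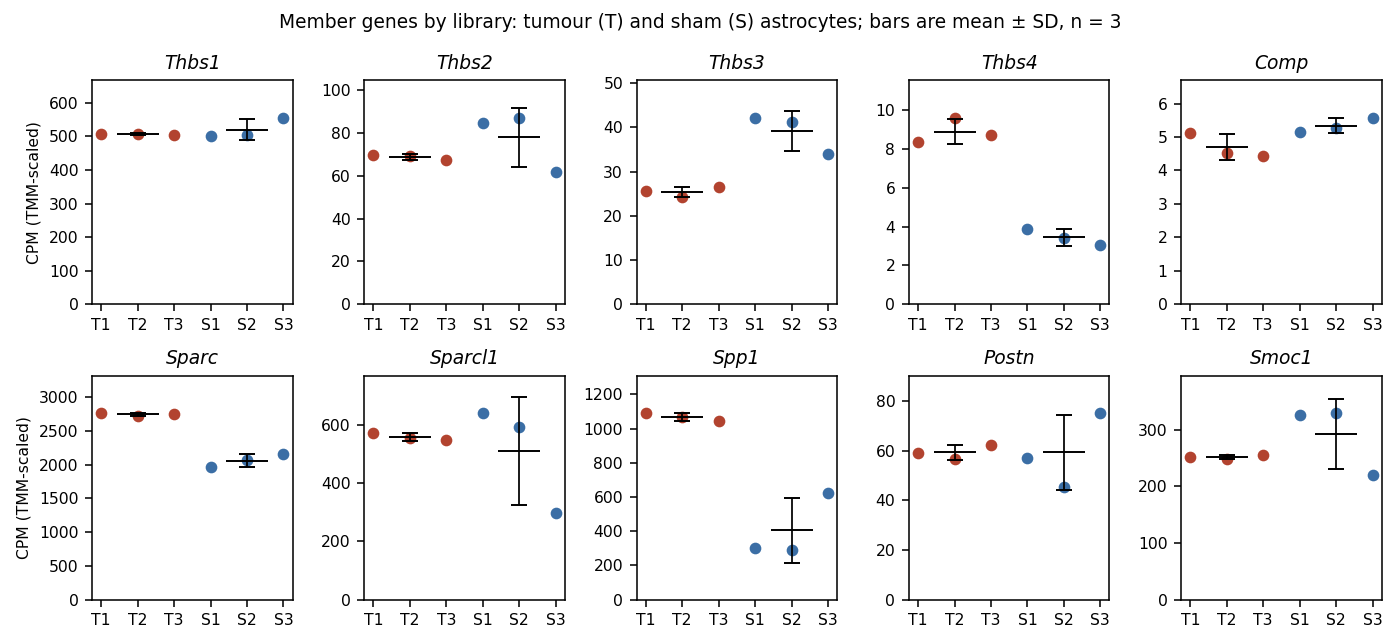
CPM of the 10 genes (y axis, linear from 0) in tumour libraries T1 to T3 (red) and sham libraries S1 to S3 (blue), with the mean and SD of each group in black. Spp1, Sparc and Thbs4 lie higher in all 3 tumour libraries, Thbs3 lies lower, and sham 3 stands away from sham 1 and sham 2 for Spp1, Sparcl1, Smoc1, Thbs2 and Postn.

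Spp1 encodes osteopontin, a secreted phosphoprotein that binds integrins and CD44 and is also made by macrophages and microglia. The gene lies on chromosome 5 from 104435118 to 104441050 on the plus strand (mm10). Spp1 had 1091, 1065 and 1046 CPM in tumour libraries 1 to 3, against 300, 289 and 622 CPM in sham libraries 1 to 3. The 3 tumour values lie close together and above every sham value, and sham 3 lies between them and the other sham libraries. Spp1 thus rose by 1.40 on the log2 scale (SE 0.31, edgeR adjusted p = 0.0239), a 2.64-fold rise. The call was lost without any 1 library other than sham 3, with adjusted p from 0.0710 without sham 2 to 0.0914 without tumour 1. Without sham 3 the log2 fold change was 1.85, in a fit that called 4250 genes higher and 4179 lower. On the TPM scale, which divides by transcript length, Spp1 stood 87th of all 35127 genes in the tumour libraries and 234th in the sham libraries by mean level.

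Of 11 microglia and macrophage markers 5 did not pass the filter on low counts, Ptprc (CD45) had at most 1 read in any library, and Itgam was between 0 and 0.374 CPM. The summed CPM of the 11 was 133 to 137 in tumour and 94.1 to 122 in sham libraries, nearly all of it from Tmem119 (86 to 87.7 CPM in tumour and 79.6 to 110 CPM in sham libraries) and Cd68. Cd68, a lysosomal membrane glycoprotein, had 45.8, 41.3 and 44.9 CPM in tumour libraries and 7.34, 5.07 and 10.2 CPM in sham libraries, and it was the only one of the 6 tested markers that was called. Some others, which were not called or not tested, were higher in sham 1 and sham 2 than in the tumour libraries. C1qa had 1.04, 0.863 and 1.11 CPM in tumour libraries and 3.65, 3.99 and 0.635 CPM in sham libraries. Lyz2 had 23, 36 and 44 reads in tumour libraries and 91, 81 and 9 reads in sham libraries. Tyrobp had 10, 5 and 4 reads in tumour libraries and 18, 22 and 6 reads in sham libraries. The part of these markers in the Spp1 values was not tested. In bulk RNA, more cells of a type and more RNA per cell cannot be told apart.

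The transcripts of Spp1 keep almost the same proportions in both groups. Spp1-202 differs from the main form Spp1-201 in its coding part only by a 3-base exon at chr5:104436901-104436903, which adds one codon, and is shown here because both forms carry the rise. The 3-base exon is in capitals between the neighbouring exons of the GENCODE M21 transcript (mm10, plus strand, 5′ to 3′).
Spp1-202 junction: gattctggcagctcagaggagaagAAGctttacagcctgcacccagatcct
Spp1-201 made up 50.6%, 51.1% and 52.2% of the gene's TPM in tumour libraries and 54.2%, 52.7% and 57.2% in sham libraries. Spp1-202 made up 42.1%, 41.5% and 40.9% in tumour libraries and 37.4%, 39.7% and 37.1% in sham libraries. The tumour shares of the form with the 3-base exon lie slightly above all sham shares. Shares of transcripts are Salmon's estimates without an error in the files, so they are described and not tested.

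Sparc encodes SPARC (osteonectin), a collagen-binding glycoprotein that counters hevin at synapses. Sparc lies on chromosome 11 from 55394500 to 55423183 on the minus strand and was the most abundant of the 10 genes, 58th of all genes by mean TPM in tumour and 69th in sham libraries. Sparc had 2765, 2720 and 2757 CPM in tumour libraries, against 1961, 2062 and 2155 CPM in sham libraries. All 3 tumour values lie above the sham range, which is narrow and includes sham 3. Sparc rose by 0.42 on the log2 scale (SE 0.12, edgeR adjusted p = 0.0474), a 1.33-fold rise that only just passed the threshold. The call was lost without any 1 library other than sham 3 (adjusted p = 0.131 to 0.169), without a filter on low counts (adjusted p = 0.0867) and with library totals in place of TMM factors (adjusted p = 0.0532).

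Nearly all Sparc reads fell on Sparc-201 and Sparc-202, whose coding parts differ by 3 bases at the start of an exon. These 3 bases, chr11:55407277-55407279, are in capitals in the junction of Sparc-201 (minus strand, 5′ to 3′), shown because both forms rose alike.
Sparc-201 junction: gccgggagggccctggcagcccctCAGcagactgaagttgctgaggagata
Sparc-202, without them, took 56.6%, 54.2% and 55.1% of the gene's TPM in tumour libraries and 54.0%, 55.4% and 52.7% in sham libraries, so the groups overlap. The ratio of mean CPM, tumour over sham, was 0.45 on the log2 scale for Sparc-202 and 0.38 for Sparc-201.

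Sparcl1 encodes hevin, the SPARC relative that links neurexins with neuroligins across the synapse. It lies on chromosome 5 from 104079111 to 104113733 on the minus strand. Sparcl1 had 574, 557 and 549 CPM in tumour libraries, against 642, 595 and 298 CPM in sham libraries. The tumour values fall between sham 3, which is low, and sham 1 and sham 2, which are high. For Sparcl1 the change was 0.13 log2 units (SE 0.27, edgeR adjusted p = 0.774). Without sham 3 it was -0.15 and called lower (adjusted p = 0.000121), so sham 3 alone sets its sign. That fit called 4179 of 14618 tested genes lower. On the log2 scale of CPM with 0.5 added, sham 3 lay 1.05 below the mean of sham 1 and sham 2 for Sparcl1 (difference -1.05) and above it for Spp1 (difference 1.08). These were the widest gaps among the 10 genes, where the median absolute difference over all tested genes was 0.29. The 9 astrocyte markers also had a lower summed level in sham 3, at 2685 CPM against 4593 and 4602 CPM in sham 1 and sham 2, with 3135 to 3243 CPM in the tumour libraries, and their part in the Sparcl1 values was not tested.

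Smoc1 encodes a calcium-binding protein of the SPARC family that antagonises BMP signalling in Xenopus. Its locus is on chromosome 12 from 81026808 to 81186414 on the plus strand. Smoc1 had 252, 248 and 256 CPM in tumour libraries, against 327, 330 and 221 CPM in sham libraries. As for hevin, sham 3 is the lowest library and the tumour values lie between it and the other sham libraries. The log2 fold change was -0.22 (SE 0.16, edgeR adjusted p = 0.377). Without sham 3 it was -0.38 and called lower, in a fit that called 4179 genes lower. Of its forms, Smoc1-202 has 33 coding bases at chr12:81150619-81150651 that Smoc1-201 lacks, in capitals here with the bases next to them in the transcript (plus strand, 5′ to 3′), shown because the balance of these forms was level between groups.
Smoc1-202 junction: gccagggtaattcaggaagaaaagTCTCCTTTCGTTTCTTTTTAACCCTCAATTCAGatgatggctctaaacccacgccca
Smoc1-202 took 28.6% ± 1.67 of the gene's TPM in tumour libraries and 28.2% ± 2.20 in sham libraries (SD, n = 3 each), a difference below the spread between libraries.

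**Figure D2:**
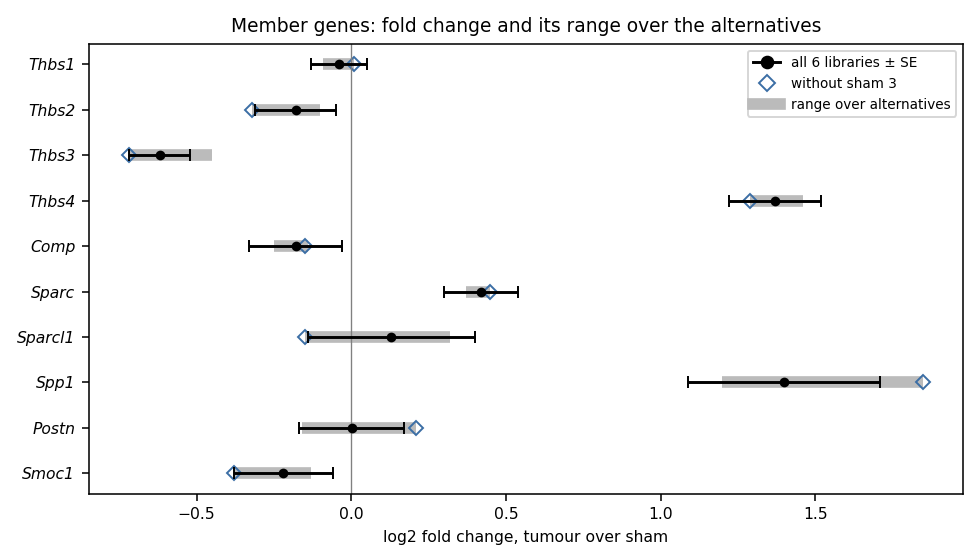
Log2 fold change, tumour over sham, of the 10 genes (x axis) in the fit of all 6 libraries with its SE (black), without sham 3 (blue diamonds) and as the range over the 15 alternatives (grey bars). Thbs4, Spp1 and Sparc stay above 0 and Thbs3 below 0 in each, while Sparcl1, Postn and Thbs1 cross 0.

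Among the thrombospondins, Thbs1 and Thbs2 form the trimeric subgroup with type I repeats, through which they bind CD36, and Thbs3, Thbs4 and Comp form the pentameric subgroup, which lacks those repeats. Thbs1, on chromosome 2 from 118111876 to 118127133, had 507, 508 and 505 CPM in tumour libraries, against 501, 504 and 556 CPM in sham libraries. The groups overlap almost fully. Its log2 fold change was -0.04 (SE 0.09, edgeR adjusted p = 0.796), and Thbs1 was called in 0 of the 15 alternatives, with log2 fold changes between -0.09 and 0.01. Thbs2, on chromosome 17 from 14665500 to 14694235, had 69.6, 69.5 and 67.3 CPM in tumour libraries, against 84.7, 87.3 and 62.0 CPM in sham libraries. Its tumour values lie between sham 3 and the other sham libraries, and its log2 fold change was -0.18 (SE 0.13, edgeR adjusted p = 0.368). Without sham 3 it was -0.32 and called lower, in a fit that called 4179 genes lower.

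Thbs4, which in other tissues is known from tendon, heart and muscle and in mouse brain from astrocytes born in the subventricular zone after injury, was the gene of the list whose call was least dependent on single libraries. Its locus is on chromosome 13 from 92751590 to 92794818 on the minus strand. Thbs4 had 8.36, 9.62 and 8.73 CPM in tumour libraries (202, 234 and 221 reads), against 3.87, 3.41 and 3.04 CPM in sham libraries (88, 82 and 67 reads). The groups are far apart and sham 3 lies with the other sham libraries. Thbs4 rose by 1.37 on the log2 scale (SE 0.15, edgeR adjusted p = 0.00294), a 2.59-fold rise. It stayed called whichever library was left out (adjusted p at most 0.0273) and in 14 of 15 alternatives, the exception being the fit with near-coincident libraries summed, which called 0 genes. Its level was low in both groups, with ranks of 11141 in tumour and 12687 in sham libraries by mean TPM.

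Thbs3 fell. It lies on chromosome 3 from 89215180 to 89226837 on the plus strand, within the span of Mtx1 on the opposite strand. Thbs3 had 25.5, 24.3 and 26.5 CPM in tumour libraries, against 42.2, 41.2 and 34.0 CPM in sham libraries. The tumour values lie below all sham values, and sham 3 is the nearest to them. Its log2 fold change was -0.62 (SE 0.10, edgeR adjusted p = 0.00903). The call was lost without tumour 1 (adjusted p = 0.0538) or without tumour 2 (adjusted p = 0.0550). Mtx1, a mitochondrial import gene named here because it overlaps Thbs3, had 26.8, 27.3 and 29.6 CPM in tumour libraries and 33.4, 35.9 and 34.0 CPM in sham libraries (log2 fold change -0.30 ± 0.07 SE, adjusted p by edgeR = 0.0310). The sources used here give no strand setting, so whether reads of the overlap were told apart by strand is not known.

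The main coding transcript of Thbs3 was lower in tumour libraries, as were some but not all of its other transcripts. Thbs3-201 had 19.4, 17.4 and 18.6 CPM in tumour libraries and 30.0, 28.5 and 25.3 CPM in sham libraries, and it held 70.3% to 76.2% of the gene's reads in tumour libraries and 69.2% to 74.4% in sham libraries, so its share overlapped between groups. The ratio of mean CPM, tumour over sham, was -0.60 on the log2 scale for Thbs3-201, -0.96 for the retained-intron form Thbs3-203 and -0.85 for Thbs3-210. For Thbs3-204, also a retained-intron form, it was 0.13. Thbs3-201 held only 19.1% to 23.9% of the gene's TPM in tumour libraries and 24.2% to 25.4% in sham libraries, since the retained-intron fragments of 426 and 455 bases, Thbs3-204 and Thbs3-210, weigh heavily per length although they had 12 to 69 reads per library. The gene's TPM therefore overstates its coding level, which by Thbs3-201 alone was 6.77 to 7.71 TPM in tumour and 9.94 to 11.3 TPM in sham libraries. With an offset for transcript length the log2 fold change of the gene was -0.45 (adjusted p = 0.0385).

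Comp, cartilage oligomeric matrix protein, was the scarcest of the 10 genes in tumour libraries and scarce in both groups. Its locus is on chromosome 8 from 70373558 to 70382066. Comp had 5.13, 4.52 and 4.42 CPM in tumour libraries (110 to 124 reads), against 5.15, 5.28 and 5.58 CPM in sham libraries (117 to 127 reads). The groups do not overlap, but tumour 1 and sham 1 nearly touch. The log2 fold change was -0.18 (SE 0.15, edgeR adjusted p = 0.408).

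Upstream regions are shown for the members with the largest rises, as the 250 bases before the start site in RefSeq (GRCm38.p6, 5′ to 3′ on the gene's strand). Both strands were searched for the hypoxia-inducible factor core ACGTG or GCGTG, the AP-1 motif TGANTCA and the TATA motif TATAAA, and matches are in capitals. The motifs did not overlap.
Spp1 chr5:104434861-104435110, plus strand: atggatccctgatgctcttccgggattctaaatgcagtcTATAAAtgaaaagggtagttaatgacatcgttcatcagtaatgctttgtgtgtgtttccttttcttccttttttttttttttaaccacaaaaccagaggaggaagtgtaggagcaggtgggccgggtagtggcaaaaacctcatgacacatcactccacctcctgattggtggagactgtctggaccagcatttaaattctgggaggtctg
Thbs4 chr13:92794819-92795068, minus strand: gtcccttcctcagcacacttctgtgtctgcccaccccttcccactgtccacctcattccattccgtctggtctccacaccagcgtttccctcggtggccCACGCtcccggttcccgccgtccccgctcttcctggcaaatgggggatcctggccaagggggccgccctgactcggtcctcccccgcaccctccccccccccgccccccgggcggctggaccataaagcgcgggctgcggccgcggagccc
The Spp1 window shown held TATAAA at 211 to 206 bases before the start. A further Spp1 window, chr5:104435942-104436191, held no match. The Thbs4 window held CACGC, the reverse complement of GCGTG, at 151 to 147 bases before the start. The Thbs4 window was rich in G and C (70.8%), the Spp1 window shown was not (43.6%). TATAAA was also found for Postn, at 26 to 21 bases before the start, and for Thbs2 as its reverse complement TTTATA, at 126 to 121 bases. Over the 8 windows listed for 6 of the 10 members, the hypoxia-inducible factor core was in 1, AP-1 in 0 and TATAAA in 3, against 38.6%, 6.75% and 12.4% of 32851 windows of all genes. A match describes letters and not a site in use.

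Postn encodes periostin, a fasciclin-domain protein of wound and tumour matrix whose C-terminal exons are spliced in several combinations. It lies on chromosome 3 from 54361109 to 54391037 on the plus strand. The gene as a whole did not differ between groups beyond the spread. Postn had 59.0, 56.4 and 62.2 CPM in tumour libraries, against 56.9, 45.5 and 75.1 CPM in sham libraries. The tumour values lie inside the sham range. The log2 fold change was 0.00 (SE 0.17, edgeR adjusted p = 0.997). Without sham 3 it was 0.21 and called higher (adjusted p = 0.0309), in a fit that called 4250 genes higher. The summed level of 10 fibroblast, pericyte and smooth muscle markers was also highest in sham 3, with 3937 to 3969 CPM in tumour libraries and 3575, 3589 and 6134 CPM in sham libraries. Most of it was Col1a1 and Col1a2, whereas Dcn (132, 123 and 52.5 CPM in sham 1 to 3) and Lum (60.8, 55.7 and 45.9 CPM in sham 1 to 3) were lowest in sham 3 among the sham libraries. Dcn had 155 to 157 CPM and Lum 40.1 to 43.6 CPM in tumour libraries. The part of these markers in the Postn values was not tested.

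The forms of Postn, in contrast, varied widely between libraries. Exons 17 and 21 of the 23 exons of Postn-202 are left out of some full-length coding forms: Postn-203 has exon 17 only, Postn-201 has exon 21 only, Postn-202 has both and Postn-204 has neither. Exon 17 (81 bases, chr3:54380412-54380492) and exon 21 (84 bases, chr3:54385671-54385754) are given in capitals with 24 bases of the neighbouring exons on each side (Postn-202, plus strand, 5′ to 3′), because the shares of the forms turn on them.
Postn exon 17: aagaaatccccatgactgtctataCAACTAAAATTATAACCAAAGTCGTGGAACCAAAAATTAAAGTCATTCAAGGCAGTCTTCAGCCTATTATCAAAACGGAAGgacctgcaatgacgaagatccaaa
Postn exon 21: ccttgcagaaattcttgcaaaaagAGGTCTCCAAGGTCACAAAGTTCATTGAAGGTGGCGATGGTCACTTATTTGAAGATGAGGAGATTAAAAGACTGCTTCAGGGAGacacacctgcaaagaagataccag
Of the TPM of these 4 forms, those with exon 17 held 40.0%, 33.0% and 34.2% in tumour libraries, against 64.9%, 55.8% and 16.1% in sham libraries. Those with exon 21 held 37.1%, 33.4% and 28.0% in tumour libraries, against 49.9%, 45.4% and 18.7% in sham libraries. Postn-204, with neither, held 23.5%, 39.3% and 39.1% in tumour libraries, against 0%, 9.18% and 66.8% in sham libraries. Sham 1 and sham 2 thus had mostly forms with one or both exons and sham 3 mostly the form without, and the tumour libraries lay between them for both exons and for the form without. Postn-204 had 320, 517 and 586 estimated reads in tumour libraries and 0, 98 and 1056 in sham libraries. The forms share all other coding exons, so within the coding part Salmon divides their reads on the few that cover or cross these exons. Their untranslated ends also differ, with Postn-202 ending at 54390452 and the others at 54391034 to 54391037.

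**Figure D3:**
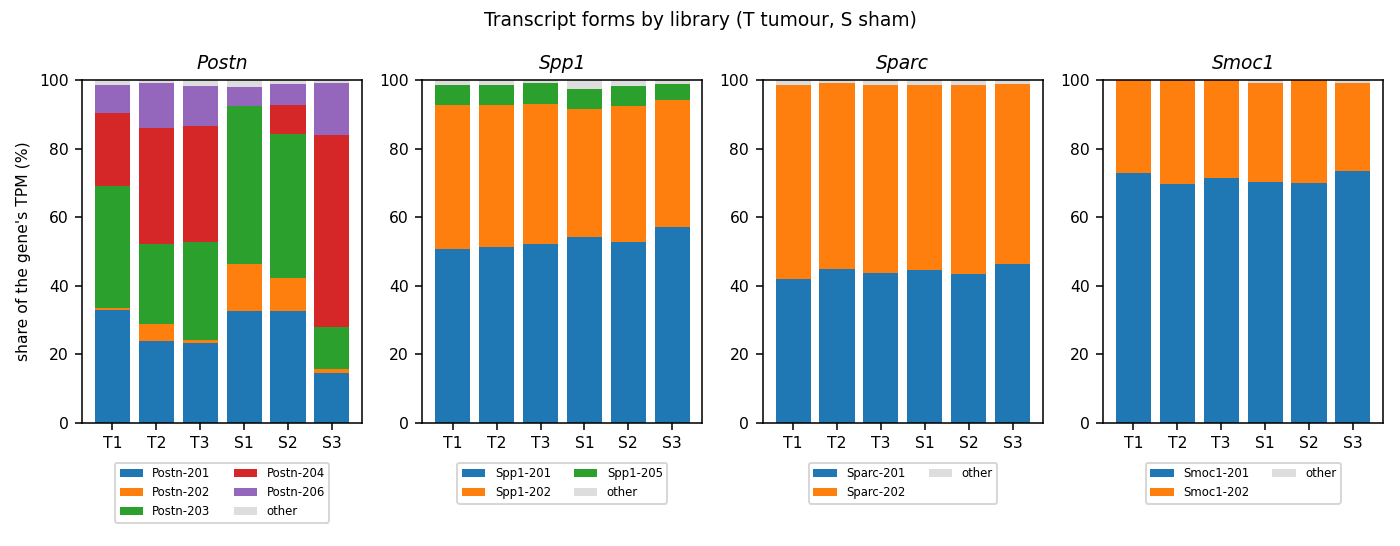
Share of each gene's TPM (y axis, percent) taken by its transcripts in tumour libraries T1 to T3 and sham libraries S1 to S3, for Postn, Spp1, Sparc and Smoc1. The Postn panel changes from library to library, with Postn-204 absent in sham 1 and at 56% of all Postn TPM in sham 3, while the other panels are nearly level.

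Per length, the 10 genes spanned almost 3 orders of magnitude. In the tumour libraries their order by mean TPM was Sparc (1863 ± 44.5 TPM), Spp1 (1380 ± 43.0 TPM), Sparcl1 (256 ± 7.40 TPM), Thbs1 (121 ± 0.769 TPM), Smoc1 (106 ± 2.41 TPM), Thbs3, Postn, Thbs2, Thbs4 and Comp (SD, n = 3). Thbs3 (33.0 ± 2.52 TPM) and Postn (30.0 ± 1.64 TPM) were the one neighbouring pair whose ranges overlapped. By its coding transcript Thbs3-201 alone, Thbs3 would stand below Thbs2 (17.0 ± 0.289 TPM in tumour and 19.0 ± 3.11 TPM in sham libraries) in both groups. In the sham libraries the order was the same except that Comp (2.70 ± 0.149 TPM) stood above Thbs4 (1.40 ± 0.136 TPM), and Thbs1 (122 ± 8.78 TPM) and Smoc1 (120 ± 23.3 TPM) overlapped. Thbs4 (3.68 ± 0.232 TPM) and Comp (2.41 ± 0.235 TPM) thus changed places between the groups, with no overlap in either.

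**Figure D4:**
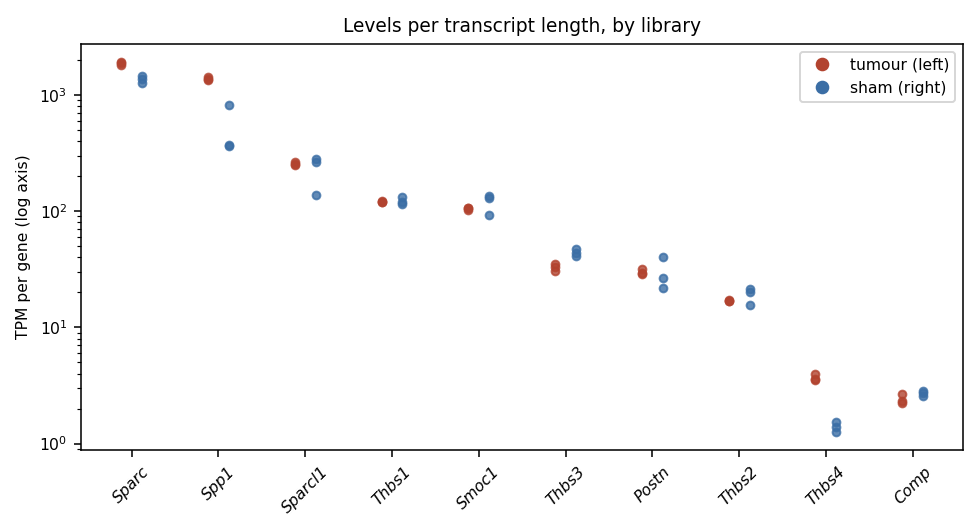
TPM per gene (y axis, log scale) of the 10 genes in tumour libraries (red, left) and sham libraries (blue, right), ordered by mean level in the tumour libraries. Spp1, Sparc and Thbs4 lie higher in all tumour libraries, and the sham libraries are more spread for genes such as Spp1, Sparcl1, Postn, Smoc1 and Thbs2.

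Of 18 tested matricellular genes outside the 10, 0 rose and 3 fell (median log2 fold change -0.41), where 10.5% of all tested genes were called higher and 10.4% lower. Ccn3, a growth-restraining CCN protein gene, had 656 ± 15.7 CPM in tumour and 1035 ± 172 CPM in sham libraries (SD, n = 3 each; log2 fold change -0.66 ± 0.14 SE, adjusted p by edgeR = 0.0233). Smoc2, the closest relative of Smoc1, had 137 ± 3.36 CPM in tumour and 222 ± 56.9 CPM in sham libraries (log2 fold change -0.70 ± 0.19 SE, adjusted p by edgeR = 0.0440). Ccn4 fell as well, to 5.96 ± 0.939 CPM in tumour libraries against 9.72 ± 1.60 CPM in sham libraries (edgeR adjusted p = 0.0385). Each of these 3 calls was lost without any 1 library other than sham 3, and those of Smoc2 (adjusted p = 0.0517) and Ccn4 (adjusted p = 0.0998) also with the offset for transcript length.

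Among 24 receptors and partners of the members, all tested, 2 rose and 1 fell (median log2 fold change 0.22), where 20.9% of all tested genes were called in either direction. Cd47, a receptor for the C-terminal part of thrombospondin 1 and a signal against phagocytosis, had 252, 261 and 252 CPM in tumour libraries, against 144, 135 and 136 CPM in sham libraries. The groups are well apart and sham 3 lies with the other sham libraries (log2 fold change 0.88 ± 0.06 SE, adjusted p by edgeR = 0.000746, called whichever library was left out). Vldlr, which binds thrombospondin 1 besides reelin, had 152, 153 and 158 CPM in tumour libraries and 25.3, 26.8 and 44.5 CPM in sham libraries, a rise called whichever library was left out. Cd36, a scavenger receptor for type I repeats, was scarce in every library, with 1, 1 and 6 reads in tumour and 21, 22 and 11 reads in sham libraries (edgeR adjusted p = 0.0346, called in 2 of the 6 fits with 1 library left out), and not called with the offset for transcript length (adjusted p = 0.0599).

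The other receptors described here were not called, though leaving out sham 3 brought Cd44, Itgav and Itgb3 over the threshold. The fit without sham 3 called 4250 genes higher and 4179 lower. Cacna2d1, the calcium channel subunit through which thrombospondins act on synapses, had 56.8, 55.5 and 54.2 CPM in tumour libraries and 54.5, 48.8 and 69.0 CPM in sham libraries. Of the osteopontin receptors, Cd44 differed by 0.24 log2 units (SE 0.15; adjusted p = 0.290 by edgeR) and Itgav by 0.41 (SE 0.17; adjusted p = 0.144 by edgeR), with sham 3 at 433 CPM of Cd44 and 454 CPM of Itgav, near or above the tumour libraries. Itgb3 encodes only one of the possible partners of the integrin subunit encoded by Itgav. It was at 2.14 to 2.65 CPM in tumour and 0.792 to 3.04 CPM in sham libraries. Lrp8, a relative of Vldlr, had 44.1 ± 2.66 CPM in tumour and 51.1 ± 8.29 CPM in sham libraries (SD, n = 3 each).

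**Figure D5:**
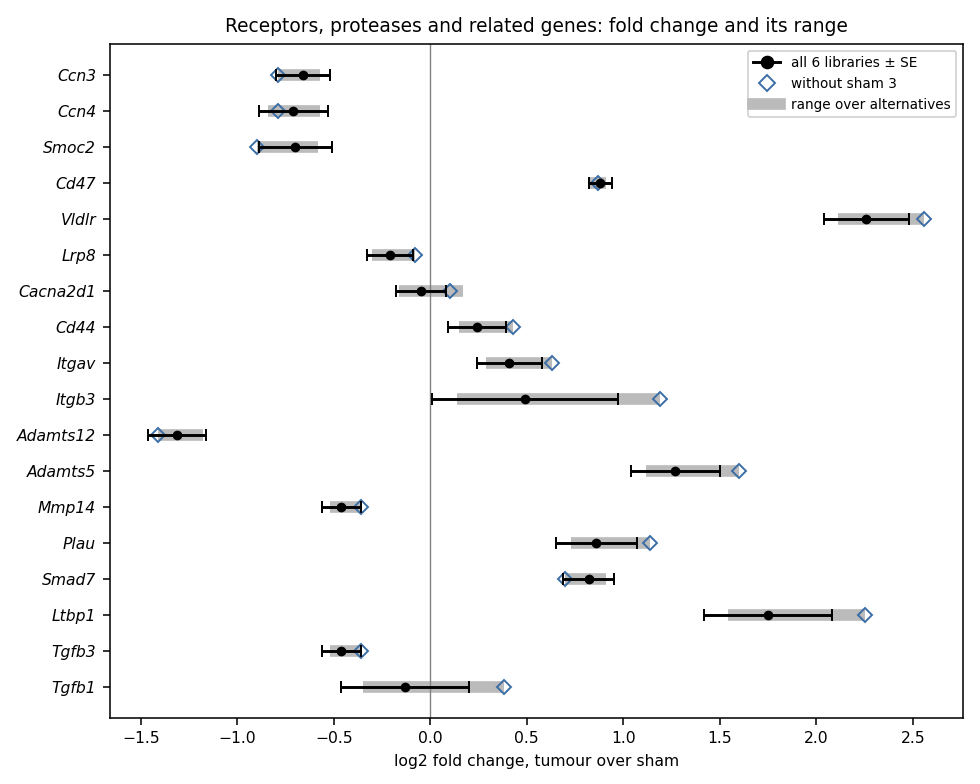
Log2 fold change, tumour over sham (x axis), of named receptors, proteases and related genes in the fit of all 6 libraries with its SE (black), without sham 3 (blue diamonds) and over the alternatives (grey bars). Cd47, Vldlr and Smad7 lie above 0 and Adamts12 below 0 throughout, while Tgfb1 and Cacna2d1 cross 0.

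Of 10 tested genes in a list of extracellular proteases 2 rose and 2 fell (median log2 fold change -0.26), beside 10.5% and 10.4% of all tested genes. Whether each of them cuts a protein of the 10 genes was not tested. Adamts12, a protease known to cut COMP, had 9.69, 11.8 and 9.79 CPM in tumour libraries and 30.4, 25.0 and 22.1 CPM in sham libraries (log2 fold change -1.31 ± 0.15 SE, adjusted p by edgeR = 0.00321, called whichever library was left out). Adamts5, an aggrecanase, had 142, 144 and 152 CPM in tumour libraries and 47.9, 48.2 and 85.9 CPM in sham libraries (log2 fold change 1.27 ± 0.23 SE, adjusted p by edgeR = 0.0136, lost without any 1 tumour library). The urokinase gene Plau rose (log2 fold change 0.86 ± 0.21 SE, adjusted p by edgeR = 0.0333) and the membrane-type metalloprotease gene Mmp14 fell (log2 fold change -0.46 ± 0.10 SE, adjusted p by edgeR = 0.0267), both lost without any 1 library other than sham 3.

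Thrombospondin 1 is known to activate latent TGF-beta, and 3 of 11 tested genes of that system rose and 1 fell (median log2 fold change 0.16), beside 10.5% and 10.4% of all tested genes. Smad7, the inhibitory SMAD, had 65.2, 68.9 and 77.4 CPM in tumour and 41.9, 44.8 and 33.0 CPM in sham libraries (log2 fold change 0.82 ± 0.13 SE, adjusted p by edgeR = 0.00844). Smad7 was called whichever library was left out. Ltbp1, which tethers latent TGF-beta to matrix, had 302, 289 and 297 CPM in tumour and 63.3, 61.0 and 139 CPM in sham libraries (log2 fold change 1.75 ± 0.33 SE, adjusted p by edgeR = 0.0144), and the ligand gene Tgfb3 fell (log2 fold change -0.46 ± 0.10 SE, adjusted p by edgeR = 0.0209). The calls of Ltbp1 and Tgfb3 were lost without any 1 tumour library. Tgfb1 itself had 36.0, 33.1 and 33.7 CPM in tumour and 26.2, 26.5 and 60.3 CPM in sham libraries. Its log2 fold change was -0.13 with all libraries (edgeR adjusted p = 0.806). Without sham 3 it was 0.38 and called, in a fit that called 4250 genes higher.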

How the data were processed

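RNA of 6 libraries was compared, 3 tumour and 3 sham, grouped by their titles. The submitters' processing notes name the mm10 build, Salmon 0.8.2 and DESeq2 1.28.1. The deposited tables give estimated counts per transcript, which are Salmon's, and TPM values, which the authors deposited and which have the same sum in each library. The sources used here give no strand setting, kit or read length.

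Of 113116 transcripts 112841 were matched by identifier to GENCODE M21 and 275 left out. Matched transcripts carried at least 99.947% of reads. Gene values are sums of these estimated counts, rounded to whole numbers. Groups were compared in edgeR 4.0.16 under R 4.3.3 with TMM factors, filterByExpr (minimum count 10, minimum total 15), a robust quasi-likelihood fit on group alone and Benjamini-Hochberg adjustment at 0.05 over all tested genes. The SE was derived from the fold change and the F statistic, so it restates the test. CPM use TMM library sizes. The 15 alternatives included limma-voom (limma 3.58.1) and DESeq2 1.42.0. The tests were tried on simulated data, where DESeq2 called more unchanged genes than edgeR or limma-voom. The simulated libraries were independent, with the same spread in both groups. They therefore cannot show how often unchanged genes are called where libraries nearly coincide, as here. Levels between genes are compared only by TPM. Depth differed little between libraries, though each tumour library was deeper than each sham library. Counting error is among the limits for genes of few reads.

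All 10 members were named. From each pathway list the rule took up to 6 called genes with the smallest p, and it took 8 receptor and TGF-beta genes whatever their call. It allowed the 2 most abundant of each marker list, and the other markers in the text were chosen after their values were seen, as were the transcripts and motifs. The members and lists were chosen with earlier results of these data known. The counts of the latent TGF-beta list include 1 gene that is not reported here.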

Additional observations from a re-analysis of the deposited data

How the results depend on the processing

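Each of the 15 alternatives kept the direction of Spp1, Sparc, Thbs4, Thbs3, Thbs2, Comp and Smoc1. Thbs4 kept its call in 14, Thbs3 in 12, Spp1 in 9 and Sparc in 6. Leaving out 1 library at a time moved the genes called higher between 536 and 4250 and those called lower between 355 and 4179, against 1506 and 1492 with all 6. Among the 10 genes it moved the number higher between 1 and 4 and the number lower between 0 and 4. The upper ends come from leaving out sham 3, where the remaining sham libraries almost coincide. With near-coincident libraries summed, which leaves 1 tumour library (assumed to vary like sham) and 2 sham libraries, edgeR called 0 genes higher and 0 lower (573 at an unadjusted p below 0.05), so 0 of the 10 either way, and no other tool was run on these sums. With a transcript length offset 1075 genes were higher and 969 lower, and with library totals 1318 were higher and 1945 lower. With the replicate block 829 genes were higher and 607 lower, and Sparc (adjusted p = 0.134), Cd36 (0.105), Smoc2 (0.0817), Mmp14 (0.0796), Ccn3 (0.0588) and Tgfb3 (0.0542) were not called. Deviations of same-numbered libraries correlated at 0.008, -0.019 and -0.001, so no shared effect of the replicate number was seen. The tumour libraries nearly coincide, so these correlations cannot tell whether the libraries were paired. Cd36 was not tested under the filter of at least 1 CPM in 3 libraries.

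Signs turned only where values lie near 0 or sham 3 was removed. Postn had -0.01 without a filter, -0.05 with library totals, -0.01 with the length offset, -0.09 with libraries summed and -0.16 to 0.21 with 1 library left out. Without sham 3, Thbs1 had 0.01, Sparcl1 -0.15, Cacna2d1 0.10 and Tgfb1 0.38, while leaving out each library in turn gave -0.07 to 0.01 for Thbs1, -0.15 to 0.32 for Sparcl1, -0.16 to 0.10 for Cacna2d1 and -0.35 to 0.38 for Tgfb1. With the length offset Cacna2d1 had 0.17. The cause was not tested.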
